A study of Mus musculus with 36 samples.

Results

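The fatty acid elongases Elovl1, Elovl2, Elovl3, Elovl5, Elovl6 and Elovl7 and the desaturases Fads1, Fads2 and Fads3 were followed in mouse liver. They were taken by gene name from a table of 49315 genes, and all 9 were among the 16638 genes with enough expression to be tested (at least 1 TPM, a read count scaled by transcript length and library total, in at least 4 samples). PolyA RNA had been sequenced from livers of 36 male mice aged 11 to 12 weeks, with 4 mice in each of 9 groups. The study used CRISPR to replace tryptophan 441 of the liver X receptor LXRalpha with phenylalanine. Its groups are unmutated homozygotes (W/W), heterozygotes (W/F) and mutant homozygotes (F/F). Each genotype was kept on chow, or on a high-fat, high-cholesterol diet that promotes metabolic steatohepatitis (the MASH diet) for 4 weeks, during which mice received daily gavage of vehicle or of the synthetic LXR agonist T0901317 at 10 mg/kg for the last 2 weeks. No restriction of the mutation to a cell type is given in the labels, and the values are those of whole liver. The chow mice were a separate cohort, and the labels give no gavage for them. Diet, vehicle gavage and cohort therefore cannot be told apart where vehicle is set against chow.

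Elongases carry out the condensing step of the cycle that lengthens fatty acids in the endoplasmic reticulum, each with its own preference for chain length and saturation. Front-end desaturases insert a double bond between an existing one and the carboxyl end. In liver Fads2, Elovl5, Fads1 and Elovl2 act in turn on dietary linoleic and alpha-linolenic acid to make arachidonic, eicosapentaenoic and docosahexaenoic acid. Elovl6 lengthens palmitate, the product of fatty acid synthase (Fasn), to stearate, which stearoyl-CoA desaturase (Scd1) converts to oleate. LXRs are oxysterol-sensing nuclear receptors that raise lipogenic genes directly and through the sterol regulatory element-binding protein encoded by Srebf1.

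Under T0901317, 6 of the 9 genes were higher in W/W livers, where 10.8% of all tested genes changed in either direction and 7.87% were higher: Elovl6, Fads3, Elovl5, Fads2, Fads1 and Elovl1. In W/F and F/F livers Elovl6 alone of these 6 was called higher in the deposited values. There 65.9% (W/F) and 35.1% (F/F) of all genes were called, 59.3% and 31.2% lower. After each library was rescaled by its median ratio to a reference, Elovl5, Fads1 and Fads2 were also called higher in W/F, and Fads1 and Fads2 in F/F. Rescaled, 50.8% and 16.3% of all genes were called. On the MASH diet with vehicle both mutant genotypes had less Elovl3, Elovl6, Elovl5, Fads1 and Fads2 than W/W, and more Elovl7 and Elovl1. In these comparisons 68.5% of all tested genes were called in W/F (61.6% higher) and 76.5% in F/F (69.3% higher) in the deposited values. The deposited call of Fads1 in F/F was lost when any of several single libraries was left out.

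The sequences upstream of 4 of the 6 genes that were higher with T0901317 in W/W livers are shown. Elovl1, the gene of the 6 with the smallest change, has a pair of windows, which are not printed, and Fads1 had no entry. They are the 250 bases before the transcription start in RefSeq (GRCm38.p6), 5′ to 3′ on the gene's strand, at chr9:77917115-77917364 (plus strand) for Elovl5, chr3:129532136-129532385 (plus) for Elovl6, chr19:10101504-10101753 (minus) for Fads2 and chr19:10041298-10041547 (plus) for Fads3. Capitals mark matches, on either strand, to the motifs searched. The RefSeq starts differ from those of the GENCODE M21 annotation. Most of the Fads2 window, with its marked match, lies within the GENCODE gene, which begins at 10101746 on the minus strand. The last bases of the Elovl6 window lie past the GENCODE start at 129532355.
Elovl5: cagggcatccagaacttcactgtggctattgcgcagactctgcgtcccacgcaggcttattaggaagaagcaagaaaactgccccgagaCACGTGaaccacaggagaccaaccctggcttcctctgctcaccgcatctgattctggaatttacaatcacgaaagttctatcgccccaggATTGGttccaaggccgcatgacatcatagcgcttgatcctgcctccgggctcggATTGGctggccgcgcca
Elovl6: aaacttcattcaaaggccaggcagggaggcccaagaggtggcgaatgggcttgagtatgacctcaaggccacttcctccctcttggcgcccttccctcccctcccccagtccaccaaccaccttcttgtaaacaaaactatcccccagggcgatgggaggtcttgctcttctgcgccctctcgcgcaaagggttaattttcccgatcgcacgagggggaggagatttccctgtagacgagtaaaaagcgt
Fads2: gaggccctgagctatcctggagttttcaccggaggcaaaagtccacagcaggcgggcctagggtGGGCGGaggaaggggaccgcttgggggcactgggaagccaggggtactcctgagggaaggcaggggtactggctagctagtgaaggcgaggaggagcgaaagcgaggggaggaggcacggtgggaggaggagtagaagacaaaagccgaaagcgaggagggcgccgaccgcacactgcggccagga
Fads3: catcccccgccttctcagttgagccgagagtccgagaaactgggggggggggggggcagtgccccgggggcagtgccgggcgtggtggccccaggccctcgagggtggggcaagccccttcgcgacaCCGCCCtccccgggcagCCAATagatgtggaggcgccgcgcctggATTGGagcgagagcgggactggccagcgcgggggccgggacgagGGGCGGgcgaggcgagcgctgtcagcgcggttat
The motifs were the sterol regulatory element TCACNCCAC, the NF-Y box CCAAT, the E-box CACGTG, the GC box GGGCGG and an LXR-type direct repeat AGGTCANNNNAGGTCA. Overlapping matches were kept. Elovl5 held an E-box 161 bases before its start and NF-Y boxes 71 and 17 bases before it. Fads3 held NF-Y boxes 106 and 78 bases before its start and GC boxes 123 and 34 bases before it. Fads2 held a GC box 186 bases before its start, and none of the 5 motifs was found in the Elovl6 window. In the windows of Elovl1 an NF-Y box lay 35 bases before a start, overlapping a GC box, and there were 7 GC boxes in all. Among 32851 such windows over the genome, 33.85% held the NF-Y box, 32.7% the GC box, 6.02% the E-box, 1.05% the sterol element and 0.0152% the direct repeat. The letters of the last 2 motifs were in none of the windows of the 7 genes that matched the RefSeq table (Elovl1, Elovl2, Elovl5, Elovl6, Elovl7, Fads2 and Fads3), which says nothing of factors that bind elsewhere or to other letters.

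Libraries held from 18.1 to 35.8 M reads. TPM of a library sum to a constant, and the median gene moved between groups, so each comparison is also given after each library was divided by the median of its ratios to a geometric mean reference (rescaled values). A gene was called where limma's Benjamini-Hochberg adjusted p over all 16638 genes was under 0.05. Fold changes are differences of log2(TPM + 1), which understate the change of genes near or below 1 TPM. Hepatocyte markers were abundant in every group. Summed markers of macrophages and Kupffer cells (8 genes, all at 1 TPM or more in every group but F/F vehicle, where 6 were) came to 258 to 429 TPM in W/W vehicle livers, 2884 to 3661 TPM in W/F vehicle livers and 3113 to 4050 TPM in F/F vehicle livers. Hepatocyte markers (8 genes) summed to 80968 to 103003, 60404 to 69537 and 36412 to 41684 TPM in the same groups. With whole-liver RNA, fewer cells of a type and less RNA per cell cannot be told apart. Replicate 2 of W/F with T0901317 stood apart from the other 3 mice of its group, at 1.00 on the first principal component against 44.9 to 54.4, and with a macrophage sum of 1397 TPM against 197 to 327. The labels do not say that replicate numbers mark litters or batches.

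**Figure D1:**
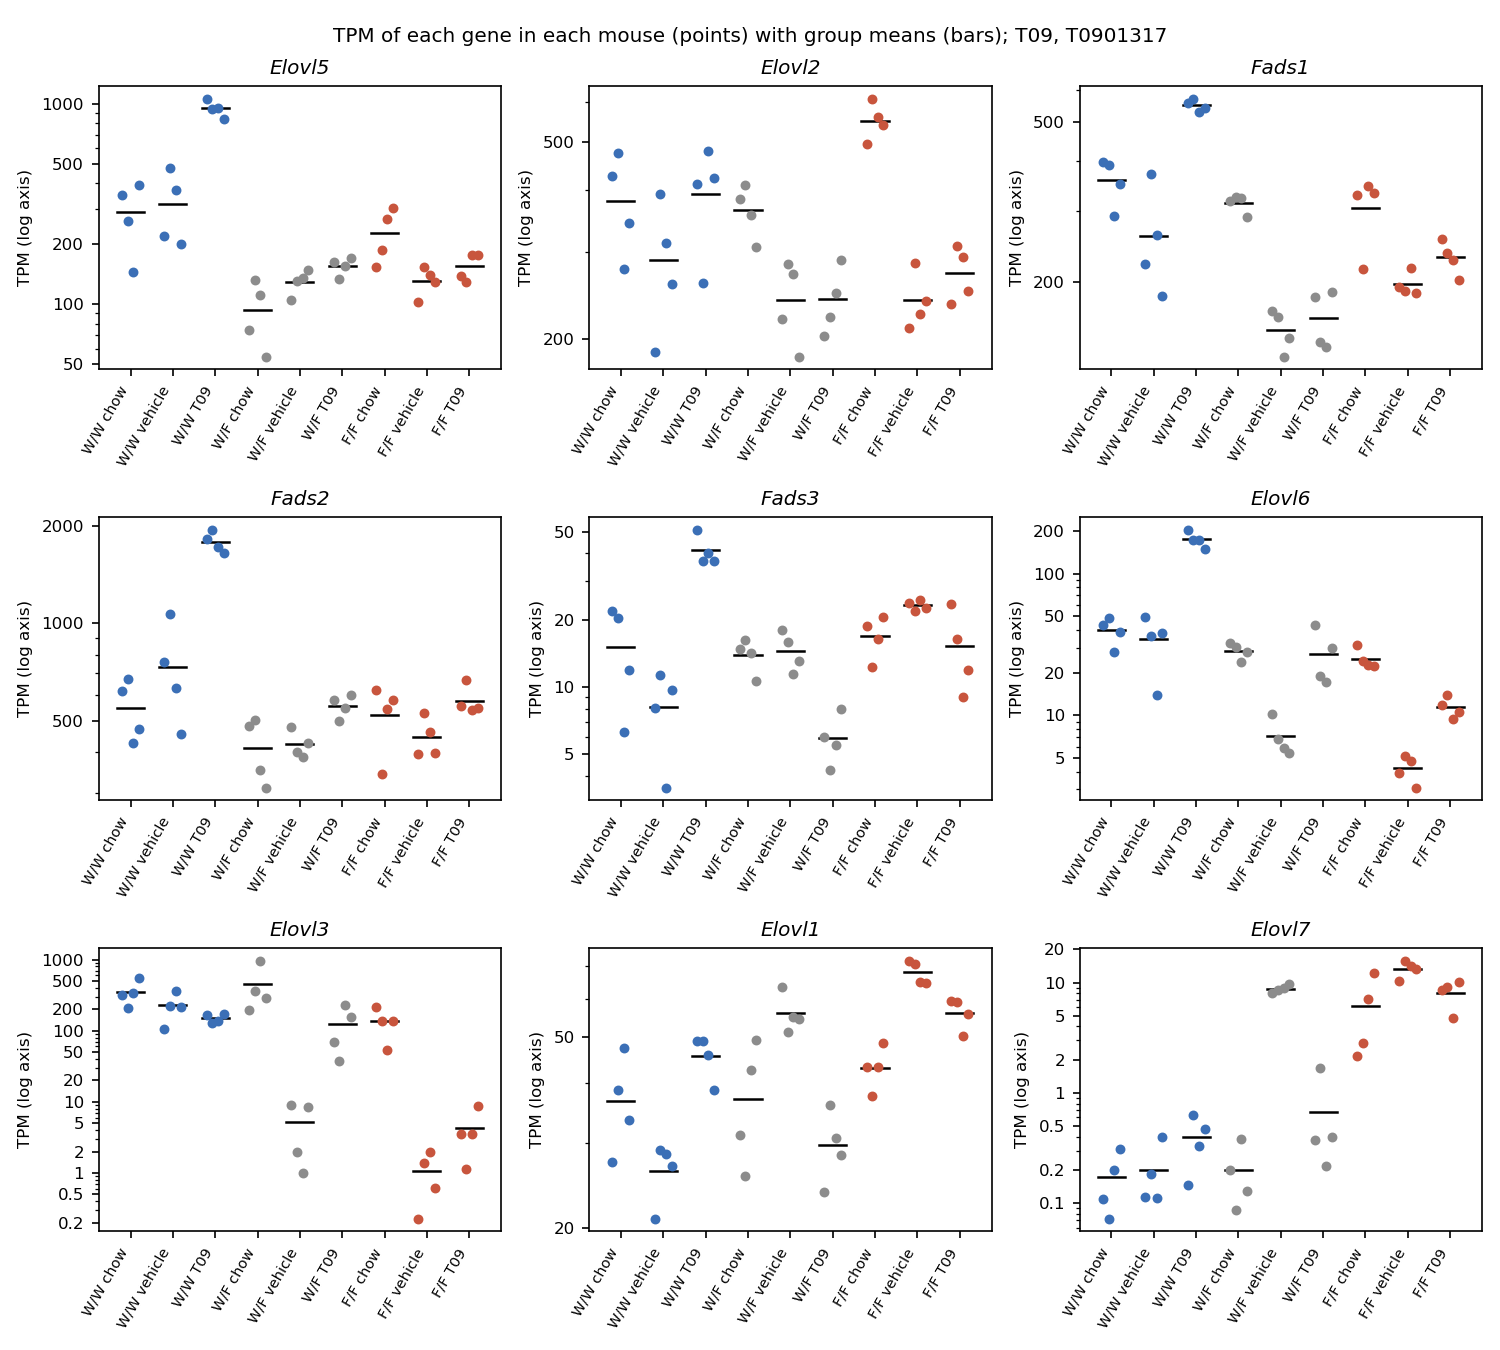
Deposited TPM (log axis) of the 9 genes in each of the 36 livers. The 9 groups lie along the x axis, with points for mice and bars for group means. W/W livers with T0901317 are the highest group for Elovl5, Fads1, Fads2, Fads3 and Elovl6, whereas Elovl7 and Elovl1 are highest in F/F vehicle livers and Elovl3 is lowest there.

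Fads2 (ENSMUSG00000024665), the desaturase of the first step from linoleic and alpha-linolenic acid, had the highest mean TPM of the 9 in 7 of the 9 groups. It lies at chr19:10062765-10101746 (GRCm38, GENCODE M21, minus strand), tail to tail with Fads3 across 2.65 kb, and its start is 81.1 kb from that of Fads1. In W/W livers Fads2 was at 618, 675, 428 and 473 TPM on chow, 762, 1071, 633 and 455 TPM on vehicle, and 1818, 1942, 1719.9 and 1647 TPM with T0901317. In W/F livers it was at 483, 502, 353 and 311 TPM on chow, 479.8, 399.8, 386 and 426 TPM on vehicle, and 579, 500.2, 548 and 599.5 TPM with T0901317. In F/F livers the values were 623, 342, 543 and 579 TPM, 394, 528, 461 and 397 TPM, and 554, 670.0, 539 and 547 TPM. The 4 W/W livers with T0901317 lay above all other 32 livers. Below them each group overlapped the next in the order of the means.

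Elovl5 (ENSMUSG00000032349; chr9:77917364-77984519, plus strand), which lengthens the polyunsaturated products of Fads2, had its 9 group means between 93.3 and 947 TPM. In W/W livers it was at 349, 259.7, 144 and 395 TPM on chow, 218, 479, 372 and 201 TPM on vehicle, and 1057, 942, 953 and 836 TPM with T0901317. Among W/F livers it was at 74.5, 133, 111 and 54.7 TPM on chow, 105, 130.1, 135 and 148 TPM on vehicle, and 162, 133, 155 and 171 TPM with T0901317. Among F/F livers it was at 153, 187, 265 and 302 TPM on chow, 103, 153, 140.2 and 128 TPM on vehicle, and 139, 129, 175 and 175 TPM with T0901317. All W/F livers on chow were below all W/W livers on chow, and no mutant liver on the MASH diet reached the lowest W/W liver on that diet.

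Fads1 (ENSMUSG00000010663; chr19:10182888-10196877, plus strand), the desaturase that forms arachidonic and eicosapentaenoic acid, was at 397, 390.2, 292 and 349.8 TPM in W/W livers on chow, 221, 369.9, 262 and 185 TPM on vehicle, and 556, 569, 528 and 539.6 TPM with T0901317. In W/F livers it was at 317, 325, 324 and 289.9 TPM, 169.7, 163, 131 and 145 TPM, and 184, 142, 138 and 189 TPM in that order of treatments. In F/F livers it was at 329, 216, 346 and 333 TPM, 195, 190.3, 216 and 188 TPM, and 255, 237, 227 and 202 TPM. The W/W livers with T0901317 again lay above all others, and in W/F the 2 groups on the MASH diet overlapped each other and lay below chow. Replicate 2 of F/F on chow, at 216 TPM, was low for its group.

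Elovl2 (ENSMUSG00000021364, chr13:41182381-41220405, minus strand) makes the longest polyunsaturated chains on the way to docosahexaenoic acid. In the deposited values it had the narrowest range of group means of the 9, as a fold. They ran from 239 ± 46.2 TPM (SD, n = 4) in W/F vehicle livers to 551 ± 47.8 TPM (SD, n = 4) in F/F chow livers. F/F livers on chow were at 494, 609, 559.6 and 540.3 TPM, above every liver of the other groups as deposited. Rescaled, they spanned 432 to 617 TPM and overlapped W/W livers on chow, at 316 to 550 TPM. Below F/F chow each group overlapped the next in the order of the deposited means. In particular W/W livers with T0901317, at 411, 259, 479 and 422 TPM, overlapped W/W livers on vehicle, at 189, 392, 313 and 259 TPM.

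Fads3 (ENSMUSG00000024664; chr19:10041569-10060110, plus strand), a family member whose known substrates include sphingoid bases, was far less abundant than its neighbours Fads1 and Fads2. In W/W livers it was at 21.9, 20.5, 6.32 and 12.0 TPM on chow, 8.05, 11.3, 3.54 and 9.68 TPM on vehicle, and 51.0, 36.8, 40.1 and 36.9 TPM with T0901317. Among W/F livers it was at 14.9, 16.3, 14.3 and 10.6 TPM on chow, 18.1, 15.9, 11.5 and 13.1 TPM on vehicle, and 5.95, 4.27, 5.53 and 8.0 TPM with T0901317. Among F/F livers it was at 18.8, 12.4, 16.5 and 20.6 TPM, 23.9, 22.0, 24.8 and 22.6 TPM, and 23.7, 16.4, 9.08 and 12.0 TPM. The agonist group was thus the highest group of W/W and the lowest of W/F. In F/F the agonist group overlapped vehicle in 1 mouse.

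Elovl6 (ENSMUSG00000041220; chr3:129532355-129638495, plus strand), the palmitate elongase, was at 43.2, 48.8, 27.9 and 38.7 TPM in W/W livers on chow, 49.7, 36.3, 13.8 and 38.0 TPM on vehicle, and 203, 172, 172 and 149 TPM with T0901317. In W/F livers it was at 32.4, 30.2, 23.6 and 28.0 TPM on chow, 10.3, 6.78, 5.91 and 5.43 TPM on vehicle, and 43.0, 19.0, 17.2 and 29.7 TPM with T0901317. In F/F livers it was at 31.1, 24.3, 22.4 and 22.3 TPM on chow, 3.94, 5.12, 4.75 and 3.09 TPM on vehicle, and 11.8, 14, 9.37 and 10.5 TPM with T0901317. All vehicle livers of both mutants lay below every W/W liver. With T0901317 the W/F livers overlapped W/F chow, while the F/F livers stayed below F/F chow. Of its exon sequence, 3.98% also occurred in other annotated genes in runs of 50 bases, a share of 0.152% or less for the other 8.

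Elovl3 (ENSMUSG00000038754; chr19:46131897-46135694, plus strand), an elongase of saturated and monounsaturated very long chains known in liver for male-biased expression, ranged widest of the 9. In W/W livers it was at 317, 212, 338 and 545 TPM on chow, 107, 222, 359 and 216 TPM on vehicle, and 168, 128, 137 and 172 TPM with T0901317. Among W/F livers it was at 194, 361, 957 and 287 TPM on chow, 9.15, 1.97, 1.01 and 8.38 TPM on vehicle, and 69.6, 36.9, 227 and 157 TPM with T0901317. Among F/F livers it was at 213, 135, 53.0 and 137 TPM on chow, 0.228, 1.39, 1.98 and 0.623 TPM on vehicle, and 3.52, 1.15, 3.56 and 8.69 TPM with T0901317. The lowest group, F/F on vehicle, corresponded to 3, 18, 26 and 9 recovered reads, so these values carry a large counting error. W/W vehicle livers overlapped both other W/W groups, which did not overlap each other, and the W/F livers with T0901317 overlapped the W/W livers with T0901317.

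Elovl1 (ENSMUSG00000006390; chr4:118428093-118432953, plus strand), which makes saturated and monounsaturated very long chains used in ceramides, was at 20.9, 29.0, 28.4 and 26.9 TPM in W/W livers on vehicle and 48.9, 48.9, 45.9 and 38.7 TPM with T0901317. In W/F livers it was at 63.6, 51.1, 55.0 and 54.4 TPM on vehicle and 23.8, 36, 30.8 and 28.4 TPM with T0901317. In F/F livers it was at 71.9, 70.9, 65.1 and 64.7 TPM on vehicle and 59.3, 59.2, 50.1 and 55.7 TPM with T0901317. The agonist groups lay above vehicle in W/W and below it in both mutants, without overlap in the deposited values. On chow the 3 genotypes overlapped, between 25.7 and 49.2 TPM.

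Elovl7 (ENSMUSG00000021696; chr13:108214404-108285683, plus strand), an elongase of saturated long chains, was near the limit of detection in W/W livers, at 0.0728 to 0.637 TPM over the 12 mice, which corresponded to 3 to 32 recovered reads. Among W/F livers it was at 0.199, 0.0868, 0.384 and 0.129 TPM on chow, 7.99, 8.57, 8.86 and 9.75 TPM on vehicle, and 0.374, 1.70, 0.219 and 0.402 TPM with T0901317. Among F/F livers it was at 2.16, 2.86, 7.15 and 12.1 TPM on chow, 10.4, 15.7, 14.2 and 13.2 TPM on vehicle, and 8.48, 9.01, 4.75 and 10.0 TPM with T0901317. Every F/F liver and every W/F vehicle liver lay above every W/W liver. The value of 1.70 TPM belonged to replicate 2 of W/F with T0901317, the mouse with the high macrophage sum.

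In W/W livers T0901317 gave higher levels of the desaturases Fads1, Fads2 and Fads3, of the polyunsaturated elongase Elovl5, of the palmitate elongase Elovl6 and of Elovl1. The mean of Elovl6 rose 5.05-fold, with a log2 fold change of 2.43 ± 0.27 (SE; adjusted p = 1.3e-07), and that of Fads3 also 5.05-fold, with 2.29 ± 0.29 (adjusted p = 1.5e-06). The log2 fold change of Elovl5 was 1.66 ± 0.27 (adjusted p = 7.3e-05), that of Fads2 1.35 ± 0.19 (adjusted p = 8.7e-06), that of Fads1 1.12 ± 0.15 (adjusted p = 4.0e-06) and that of Elovl1 0.77 ± 0.15 (adjusted p = 0.00080). These were 6 of 9 genes called, where 10.8% of all tested genes were called. The median over the 9 was 1.12 against 0.06 over all genes. After rescaling the same 6 were called, where 13.5% of all genes were. Elovl2 was at 0.46 (adjusted p = 0.13; 95% confidence interval 0.07 to 0.85), Elovl3 at -0.46 (adjusted p = 0.71) and Elovl7 at 0.21 (adjusted p = 0.74). Without W/W T0901317 replicate 2, or without W/W vehicle replicate 2, Elovl2 was called (0.65 and 0.62).

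In W/F livers T0901317 gave higher Elovl3 and Elovl6 and lower Elovl7 in both scalings. The log2 fold change was 4.34 ± 0.56 (SE; adjusted p = 1.2e-07) for Elovl3, a 23.9-fold rise of the mean, 1.74 ± 0.27 (adjusted p = 1.7e-06) for Elovl6 and -2.62 ± 0.28 (adjusted p = 4.6e-09) for Elovl7. As deposited, Elovl1 (-0.90, adjusted p = 8.8e-06) and Fads3 (-1.18, adjusted p = 0.00075) were also lower, which gave 5 of 9 genes called, where 65.9% of all genes were called and the median gene moved by -0.49. After rescaling Elovl1 (-0.31, adjusted p = 0.058) and Fads3 (-0.63, adjusted p = 0.069) were no longer called. Instead Elovl2 (0.62), Elovl5 (0.87), Fads1 (0.70) and Fads2 (1.00) were called higher, against 0.01, 0.27, 0.09 and 0.40 as deposited. That made 7 of 9, where 50.8% of all genes were called. Without replicate 2 of W/F with T0901317, the mouse that stood apart, the values were 4.80 for Elovl3, 1.88 for Elovl6 and -2.88 for Elovl7, and the same 5 genes were called. Markers of other cells were lower with T0901317 in these livers: macrophage markers summed to 197 to 1397 against 2884 to 3661 TPM, bile duct markers (5 genes) to 102 to 278 against 1163 to 1590 TPM and stellate cell markers (7 genes) to 33.6 to 96.0 against 299.6 to 474 TPM. Without Spp1, which macrophages also express, the other 4 bile duct markers summed to 12.2 to 15.5 against 41.2 to 64.0 TPM. The part of these cells in Elovl7, Elovl1 and Fads3 was not tested.

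In F/F livers Elovl6 was the gene called higher with T0901317 as deposited, at 1.25 ± 0.27 (SE; adjusted p = 0.00094), a 2.70-fold rise of the mean, from 4.23 ± 0.904 to 11.4 ± 1.98 TPM (SD, n = 4 each). It was 1 of 9 genes, where 35.1% of all genes were called and the median gene moved by -0.24. An unadjusted p under 0.05 was found for 4 of the 9. After rescaling Fads1 (0.48, adjusted p = 0.030) and Fads2 (0.65, adjusted p = 0.025) were called too, against 0.22 and 0.38 as deposited, which made 3 of 9 where 16.3% of all genes were called. Elovl3 was at 1.23 (adjusted p = 0.086; interval 0.08 to 2.38), Fads3 at -0.66 (adjusted p = 0.077) and Elovl7 at -0.69 (adjusted p = 0.055). Each of these 3 was called when a library was left out: Elovl3 without F/F T0901317 replicate 2 (1.59), Fads3 without F/F T0901317 replicate 1 (-0.88), and Elovl7 without F/F T0901317 replicate 4 or F/F vehicle replicate 1 (-0.80 each).

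**Figure D2:**
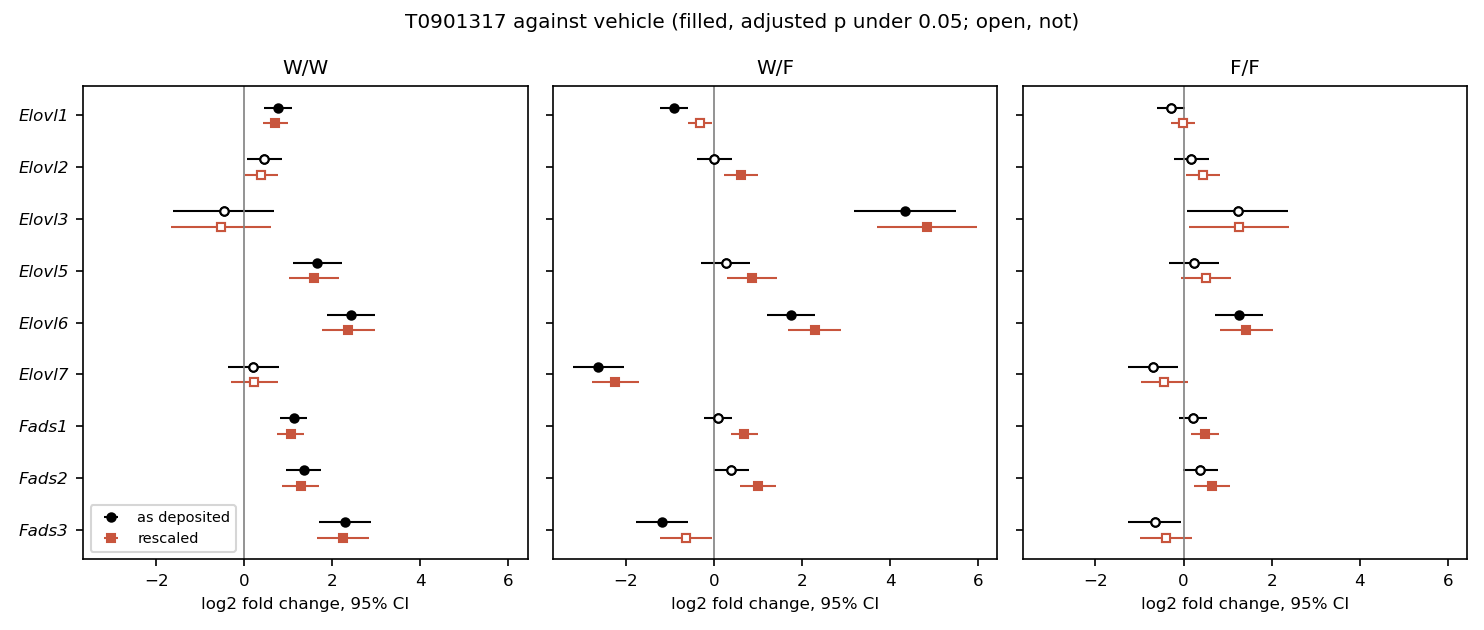
Log2 fold change of T0901317 against vehicle for each gene (x axis, with 95% confidence interval) in W/W, W/F and F/F livers, as deposited (circles) and rescaled (squares), filled where the adjusted p was under 0.05. Elovl6 is filled in all 3 genotypes, Fads3 and Elovl1 lie right of 0 in W/W and left of it in both mutants, and Elovl3 reaches 4.34 in W/F.

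The differences between these responses were tested directly, and the W/W livers are shared by both tests. For W/F against W/W the response of Fads3 differed by -3.46 on the log2 scale (adjusted p = 6.1e-08), that of Elovl1 by -1.68 (adjusted p = 2.8e-07), that of Elovl7 by -2.83 (adjusted p = 8.3e-07) and that of Elovl3 by 4.80 (adjusted p = 9.0e-06), and all 4 were called in both scalings. Elovl5 (-1.40), Fads1 (-1.03) and Fads2 (-0.95) were called as deposited but not after rescaling, where they were at -0.73, -0.36 and -0.28. The counts were 7 of 9 as deposited, where 58.5% of all genes were called, and 4 of 9 rescaled, where 43.9% were. The median of all genes was -0.54. Elovl6, at -0.68 (adjusted p = 0.12) and -0.07 rescaled, was not called in either scaling. It was called without W/F T0901317 replicate 1 (-0.93) or W/W vehicle replicate 1 (-0.90), and Elovl2 without replicate 2 of either W/W group on the MASH diet.

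For F/F against W/W the response of Fads3 differed by -2.94 (adjusted p = 7.2e-06) and that of Elovl1 by -1.05 (adjusted p = 0.00077), and both were called in both scalings. Elovl5 (-1.43), Elovl6 (-1.18), Fads2 (-0.97) and Fads1 (-0.91) were called as deposited. After rescaling these were at -1.09 (adjusted p = 0.054), -0.94 (adjusted p = 0.12), -0.63 (adjusted p = 0.13) and -0.57 (adjusted p = 0.070). The counts were 6 of 9, where 30.4% of all genes were called, and 2 of 9, where 17.4% were. Without W/W vehicle replicate 3, the liver with the lowest Elovl6 of its group, the difference for Elovl6 was -0.80 (adjusted p = 0.055).

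The MASH diet with vehicle, set against chow without a stated gavage, went with different sets of changes in the 3 genotypes. In W/W livers Fads1 was lower on vehicle than on chow, at -0.50 ± 0.15 (SE; adjusted p = 0.028). It was 1 of 9 genes, where 12.9% of all genes were called, and its groups overlapped. After rescaling it was at -0.37 (adjusted p = 0.10), and 0 of 9 were called by limma, where 15.4% of all genes were. As deposited 4 of the 9 had an unadjusted p under 0.05. The call of Fads1 was also lost without W/W chow replicate 1 or 2 or W/W vehicle replicate 1 or 4 (-0.35 to -0.45). Elovl1 was called without W/W chow replicate 1 (-0.58) or W/W vehicle replicate 2, Elovl2 without that vehicle liver, Fads2 without W/W vehicle replicate 4 (0.57), and Fads3 without W/W vehicle replicate 2 (-0.95) or W/W chow replicate 3 (-1.11).

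In W/F livers the diet group had far less Elovl3, whose mean fell 87.7-fold (log2 fold change -6.26 ± 0.56, SE; adjusted p = 8.1e-11), and less Elovl6 (-1.89, adjusted p = 4.3e-07), Fads1 (-1.04, adjusted p = 7.2e-07) and Elovl2 (-0.61, adjusted p = 0.0064). Elovl7 was higher by 3.03 ± 0.28 (adjusted p = 1.5e-10), from 0.199 ± 0.131 to 8.79 ± 0.732 TPM (SD, n = 4 each). Without W/F chow replicate 3, at 957 TPM, the fold of the Elovl3 means was 54.8. These 5 were called in both scalings. Elovl1 (0.62, adjusted p = 0.00095) was called as deposited but not rescaled (0.13). The counts were 6 of 9, where 61% of all genes were called and the median gene moved by 0.39, and 5 of 9 rescaled, where 54.9% were. Elovl5 was called higher without W/F chow replicate 2 (0.73). Summed macrophage markers were 102 to 215 TPM on chow against 2884 to 3661 TPM on vehicle, and bile duct markers other than Spp1 (4 genes) 4.75 to 12.1 against 41.2 to 64.0 TPM. The part of these in the rise of Elovl7 and Elovl1 was not tested.

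In F/F livers the mean of Elovl3 was 127-fold lower on the diet with vehicle than on chow (-5.97 ± 0.56, SE, adjusted p = 7.9e-10). Elovl6 (-2.32, adjusted p = 2.5e-08), Elovl2 (-1.20, adjusted p = 4.1e-06), Elovl5 (-0.75, adjusted p = 0.021) and Fads1 (-0.61, adjusted p = 0.0012) were lower too, and Elovl7 was higher (1.24, adjusted p = 0.00040), all in both scalings. Elovl1 was higher as deposited (0.65, adjusted p = 0.00067) but was at 0.31 rescaled (adjusted p = 0.066), and Fads2 was called rescaled alone (-0.55). The counts were 7 of 9, where 55.8% of all genes were called and the median gene moved by 0.32, and 7 of 9 rescaled, where 47% were. The call of Elovl5 was lost without F/F chow replicate 3 or 4 or F/F vehicle replicate 1 (-0.60 to -0.66). Macrophage markers summed to 465 to 737 TPM on chow and 3113 to 4050 TPM on vehicle, and their part in these values was not tested.

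**Figure D3:**
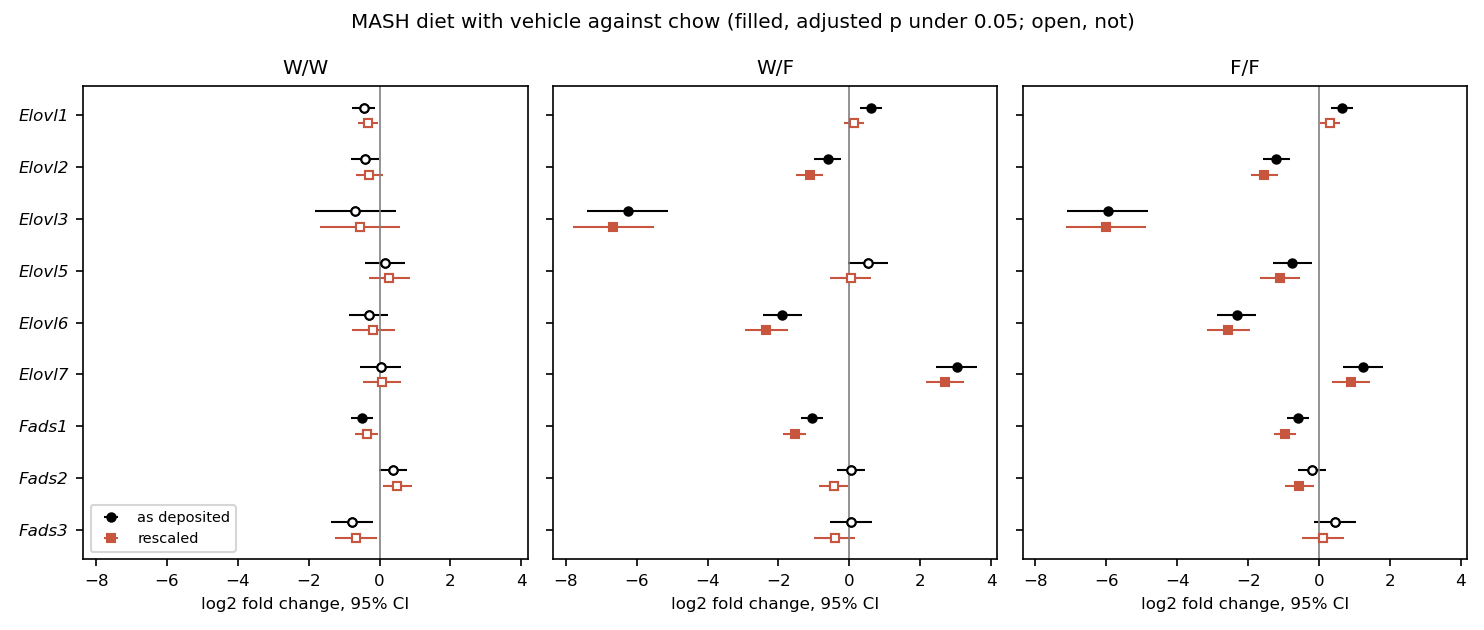
Log2 fold change of the MASH diet with vehicle against chow for each gene (x axis, with 95% confidence interval) in the 3 genotypes, as deposited (circles) and rescaled (squares), filled where the adjusted p was under 0.05. Elovl3 lies near -6 and Elovl6 near -2 in W/F and F/F, while in W/W the single filled point is Fads1 as deposited.

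The diet responses of the mutants were compared with that of W/W, whose livers both tests share. For W/F the differences of Elovl3 (-5.57, adjusted p = 1.3e-06), Elovl7 (3.00, adjusted p = 4.2e-07), Elovl6 (-1.59, adjusted p = 0.00083) and Fads1 (-0.55, adjusted p = 0.032) were called in both scalings. The call of Fads1 was lost as deposited without any 1 of 5 libraries, among them W/W vehicle replicate 2 (-0.36, adjusted p = 0.11). Elovl1 (1.07) was called as deposited alone, and Elovl2 (-0.83) and Fads2 (-0.94) rescaled alone. The counts were 5 of 9, where 54.6% of all genes were called, and 6 of 9, where 40.1% were. Fads3, at 0.83 (adjusted p = 0.088), was called without W/W chow replicate 3 (1.17) or W/W vehicle replicate 2 (1.01).

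For F/F the differences of Elovl3 (-5.28, adjusted p = 7.9e-06), Elovl6 (-2.02, adjusted p = 0.00012), Elovl2 (-0.78, adjusted p = 0.019) and Elovl1 (1.10, adjusted p = 0.00022) were called in both scalings. Elovl7 (1.21) and Fads3 (1.23) were called as deposited alone, and Elovl5 (-1.37), Fads1 (-0.59) and Fads2 (-1.05) rescaled alone. The counts were 6 of 9, where 46% of all genes were called, and 7 of 9, where 26.8% were. The call of Elovl2 was lost without W/W chow replicate 3 or W/W vehicle replicate 2, and that of Fads3 without W/W vehicle replicate 3 (0.92). As deposited Elovl5 (-0.90, adjusted p = 0.059) was called without any 1 of 5 libraries, and Fads2 (-0.57, adjusted p = 0.087) without F/F chow replicate 2 or W/W vehicle replicate 4.

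Between genotypes on chow, Elovl5 was lower in W/F than in W/W, at -1.59 ± 0.27 (SE, adjusted p = 0.0011), a mean 3.08-fold lower, and its groups did not overlap. It was 1 of 9 genes in both scalings, where 0.487% of all genes were called as deposited and 0.601% rescaled. When those 8 libraries alone were fitted it was not called (adjusted p = 0.46), with the same fold change and a larger standard error. The other 8 genes overlapped between W/F and W/W on chow.

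F/F livers on chow differed from W/W in other genes. Elovl7 was higher by 2.36 ± 0.28 (SE; adjusted p = 1.2e-07), and Elovl3 lower by 1.46 ± 0.56 on the log2 scale (adjusted p = 0.033), both in both scalings. Elovl2 was higher as deposited (0.56, adjusted p = 0.017) and at 0.18 rescaled. Elovl6 (-1.0) and Fads1 (-0.62) were called lower rescaled alone, against -0.63 and -0.24 as deposited. The counts were 3 of 9, where 46.7% of all genes were called and the median gene moved by 0.29, and 4 of 9, where 29.9% were. The call of Elovl3 was lost without any 1 of 5 libraries (-1.07 without F/F chow replicate 3, which had the lowest value), that of Elovl2 without W/W chow replicate 3 (0.42), and Elovl6 was called without F/F chow replicate 1 or W/W chow replicate 3. Macrophage markers of F/F livers on chow summed to 465 to 737 against 166 to 243 TPM in W/W. Stellate cell markers summed to 104 to 248 against 19.0 to 27.9 TPM, and bile duct markers to 720.4 to 981 against 50.1 to 61.5 TPM. Without Spp1 the other 4 bile duct markers summed to 28.6 to 48.2 against 5.11 to 7.06 TPM. The part of these cells in Elovl7 and Elovl3 was not tested.

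On chow F/F had more Elovl5 than W/F (1.30 ± 0.27, SE; adjusted p = 0.00041) and more Elovl7 (2.33, adjusted p = 2.2e-07), and less Elovl3 (-1.62, adjusted p = 0.021), all in both scalings. Elovl2 (0.60) was called as deposited alone and Fads1 (-0.41) rescaled alone. Both counts were 4 of 9, where 41.4% of all genes were called as deposited and 31.2% rescaled. The call of Elovl3 was lost without F/F chow replicate 3 (-1.23) or W/F chow replicate 3 (-1.17). Elovl1 was called without W/F chow replicate 4 (0.39), and Fads2 without F/F chow replicate 2 (0.52).

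On the MASH diet with vehicle, W/F livers had less Elovl3 (-5.41 ± 0.56, SE; adjusted p = 1.4e-09), Elovl6 (-2.03, adjusted p = 1.1e-07), Elovl5 (-1.20, adjusted p = 0.00030), Fads1 (-0.73, adjusted p = 0.00011) and Fads2 (-0.72, adjusted p = 0.0015) than W/W livers. They had more Elovl7 (3.03, adjusted p = 1.6e-10) and Elovl1 (1.07, adjusted p = 5.4e-07). These 7 were called in both scalings, though Elovl1 was at 0.42 rescaled. Fads3 was higher as deposited (0.85, adjusted p = 0.011), but not rescaled (0.24) or without W/W vehicle replicate 3 (0.54). Elovl2 was called rescaled alone (-0.90). Both counts were 8 of 9, where 68.5% of all genes were called as deposited, with a median gene at 0.52, and 53.1% rescaled.

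F/F livers on vehicle were the highest of the 9 groups for Elovl7 and the lowest for Elovl3 and Elovl6. For Elovl1 they were the highest as deposited, but rescaled the mean of W/W livers with T0901317 was higher (54.7 against 47.0). The mean of Elovl3 was 214-fold lower than in W/W (-6.74 ± 0.56, SE; adjusted p = 6.5e-12) and that of Elovl6 8.15-fold lower (-2.64 ± 0.27; adjusted p = 3.7e-10), while that of Elovl7 was 66.1-fold higher (3.57 ± 0.28; adjusted p = 2.0e-12). Elovl5 (-1.19), Fads2 (-0.66) and Fads1 (-0.35, adjusted p = 0.040) were lower, and Fads3 (1.5) and Elovl1 (1.35) were higher. The rescaled values of these 5 were -2.05, -1.52, -1.21, 0.70 and 0.50, all called. The counts were 8 of 9, where 76.5% of all genes were called and the median gene moved by 0.70, and 9 of 9 rescaled with Elovl2 at -1.09, where 59.1% were. The call of Fads1 as deposited was lost without any 1 of 5 libraries, with -0.16 without W/W vehicle replicate 2. Bile duct markers (5 genes) summed to 2908 to 3554 TPM against 54.0 to 61.4 TPM in W/W. Without Spp1, which macrophages also express, the other 4 summed to 121 to 153 against 6.02 to 8.73 TPM, and none was at 0. Their part in Elovl7, Elovl1 and Fads3 was not tested.

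W/F and F/F vehicle livers differed in fewer called genes than either did from W/W. By limma 0 of 9 genes were called in either scaling, where 21.3% of all genes were called as deposited and 10.6% rescaled, and 4 of the 9 had an unadjusted p under 0.05. A fit of those 8 libraries alone called 4 of 9, array weights 2, and the replicate block or a pseudocount of 0.1 called 1 each. The intervals of the differences were -2.48 to -0.18 for Elovl3, -1.16 to -0.07 for Elovl6, 0.06 to 1.25 for Fads3 and 0.07 to 0.69 for Fads1. Elovl3 was called without W/F vehicle replicate 3 (-1.76). As deposited, the groups did not overlap for Elovl1, Elovl6, Elovl7, Fads1 and Fads3. Rescaled, they did not overlap for Elovl6 and Fads3. The share of all genes without overlap was not computed.

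With T0901317, W/F livers had less of 7 of the 9 genes than W/W livers, in both scalings. The means of Fads3, Elovl6 and Elovl5 were 6.94-fold, 6.39-fold and 6.10-fold lower, with log2 fold changes of -2.62 ± 0.29 (SE; adjusted p = 8.8e-08), -2.72 ± 0.27 (adjusted p = 7.9e-09) and -2.60 ± 0.27 (adjusted p = 3.2e-08). Fads1 (-1.76, adjusted p = 5.4e-10), Fads2 (-1.68, adjusted p = 1.8e-07), Elovl2 (-0.68, adjusted p = 0.018) and Elovl1 (-0.61, adjusted p = 0.0088) were lower as well. Of all genes 9.88% were called as deposited and 13.4% rescaled, the median of all genes was 0.00, and the median of the 9 was -1.68. Elovl3 (-0.61, adjusted p = 0.60) and Elovl7 (0.20, adjusted p = 0.77) overlapped between the groups. Elovl2 was not called without any 1 of 4 libraries (-0.58 to -0.65). Without replicate 2 of W/F the same 7 were called, with Elovl6 at -2.58 and Fads3 at -2.49. Summed macrophage markers overlapped between these groups, at 197 to 1397 TPM in W/F and 273 to 581 TPM in W/W.

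F/F livers with T0901317 had less Elovl3 (-5.05 ± 0.56, SE; adjusted p = 1.3e-08) and Elovl6 (-3.82 ± 0.27; adjusted p = 2.5e-12) than W/W livers, the latter a mean 15.2-fold lower. Elovl5 (-2.62), Fads2 (-1.63), Fads3 (-1.44), Fads1 (-1.25) and Elovl2 (-0.50, adjusted p = 0.023) were lower and Elovl7 was higher (2.67, adjusted p = 5.0e-09). The same 8 of 9 were called in both scalings, where 63.2% of all genes were called as deposited, with a median gene at 0.43, and 46.9% rescaled. Elovl2 lost its call as deposited without any 1 of 5 libraries (-0.40 to -0.47). Elovl1 was at 0.30 (adjusted p = 0.095) as deposited and -0.22 rescaled.

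F/F and W/F livers with T0901317 differed in Elovl3 (-4.44 ± 0.56, SE; adjusted p = 2.0e-07), Elovl6 (-1.11, adjusted p = 0.00077), Elovl7 (2.47, adjusted p = 4.0e-08) and Elovl1 (0.90, adjusted p = 1.4e-05) in both scalings. As deposited Fads3 (1.18) and Fads1 (0.50) were also higher in F/F, but rescaled they were at 0.69 (adjusted p = 0.057) and -0.035. The counts were 6 of 9, where 62.6% of all genes were called, and 4 of 9, where 40.3% were. Without replicate 2 of W/F the first 4 were at -4.90, -1.24, 2.73 and 1.00. Macrophage markers summed to 1342 to 2103 TPM in F/F, and their part in Elovl7 and Elovl1 was not tested. The polyunsaturated enzymes Elovl5, Fads2 and Elovl2 overlapped between these groups as deposited, at -0.02, 0.05 and 0.18. Rescaled they were at -0.55 (adjusted p = 0.12), -0.49 (adjusted p = 0.053) and -0.36 (adjusted p = 0.13), lower in F/F, and Fads2 did not overlap.

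**Figure D4:**
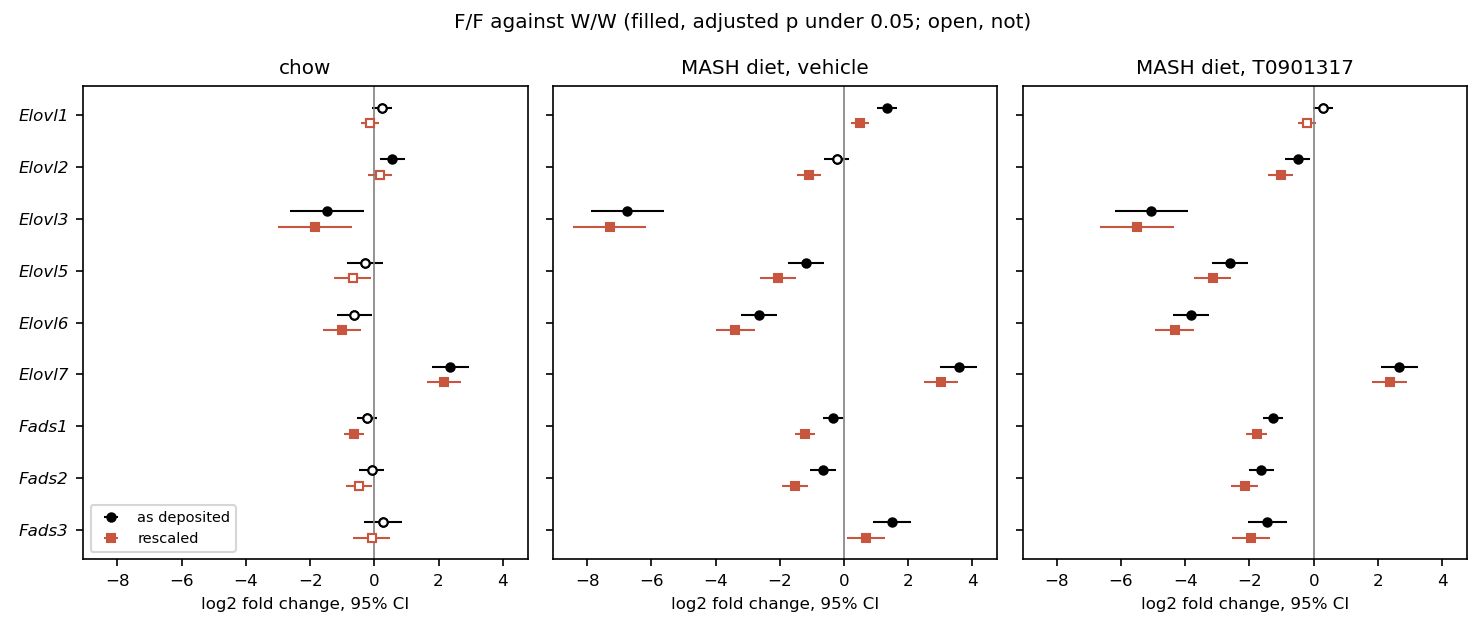
Log2 fold change of F/F against W/W for each gene (x axis, with 95% confidence interval) on chow, on the MASH diet with vehicle and with T0901317, as deposited (circles) and rescaled (squares), filled where the adjusted p was under 0.05. Fads3 lies at 1.5 on vehicle and -1.44 with T0901317, and Elovl7 is right of 0 in all 3 panels.

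Ratios between genes of the same library do not depend on how the library is scaled, and they are given as a description. The ratio of Fads1 to Fads2 was 0.578 to 0.739 in W/W livers on chow, 0.291 to 0.414 on vehicle and 0.293 to 0.328 with T0901317. In W/F it was 0.647 to 0.932, 0.339 to 0.409 and 0.252 to 0.318, and in F/F 0.527 to 0.637, 0.36 to 0.495 and 0.353 to 0.461. In each genotype both diet groups lay below chow without overlap, so the desaturases of the first and later step did not keep their proportion. The ratio of Elovl2 to Elovl5 was 0.275 to 0.505 in W/W livers with T0901317, below the other 8 groups, and 3.09 to 5.59 in W/F livers on chow, where Elovl5 was low. The ratio of Elovl6 to Elovl1 was 3.52 to 4.16 in W/W livers with T0901317, 0.0999 to 0.162 in W/F vehicle livers and 0.0477 to 0.0731 in F/F vehicle livers. With T0901317 it was 0.528 to 1.81 in W/F and 0.187 to 0.236 in F/F, above vehicle in both mutants without overlap.

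**Figure D5:**
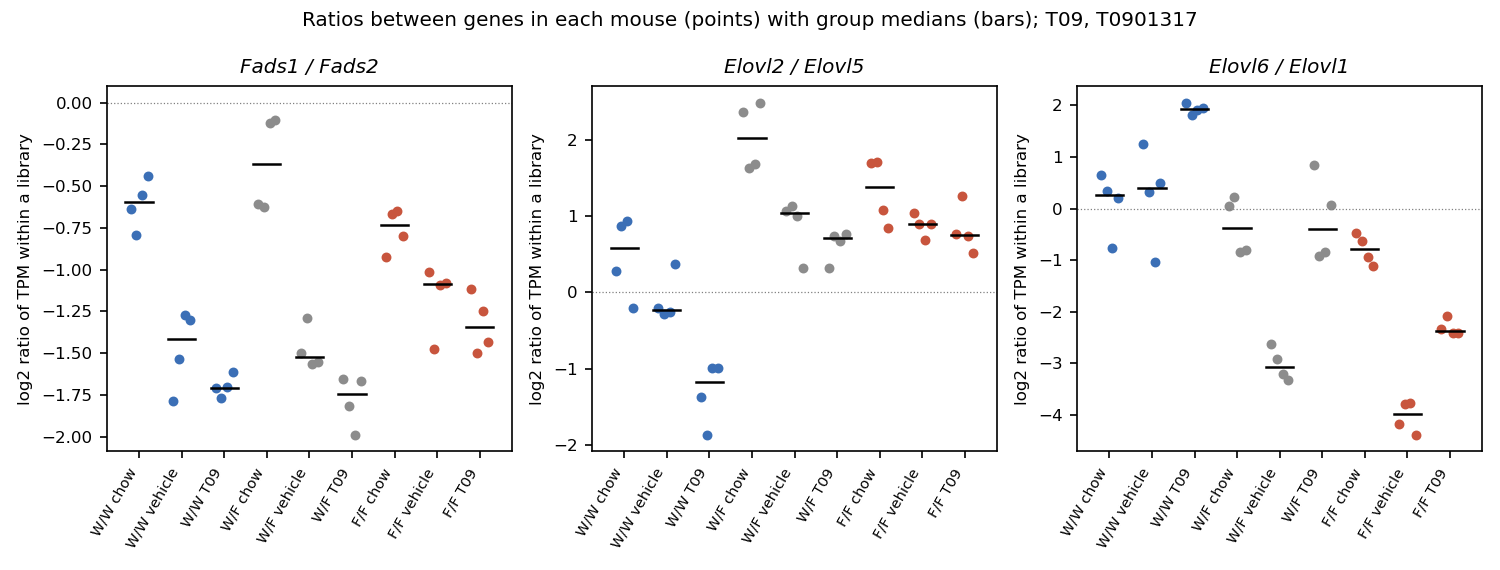
Log2 ratios of TPM between 2 genes of the same library (y axis) in the 9 groups (x axis), with points for mice and bars for group medians. Fads1 to Fads2 is lower in both diet groups than on chow in each genotype, and Elovl6 to Elovl1 is lowest in F/F vehicle livers, at 0.0477 to 0.0731 before the log.

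The other genes of these pathways were taken as lists. Their counts stand beside the shares of all genes called higher and lower, which were 7.87% and 2.91% for T0901317 in W/W, 6.59% and 59.3% in W/F, and 3.95% and 31.2% in F/F. Comparing F/F with W/W, the shares were 69.3% and 7.13% on vehicle and 56.3% and 6.96% with T0901317. Comparing W/F with W/W under T0901317, they were 3.65% and 6.23%.

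Of 6 tested partners in the elongation cycle (reductases and dehydratases), 3 were higher and 0 lower with T0901317 in W/W livers, with a median of 0.28 against 0.06 for all genes. The ketoacyl reductase Hsd17b12 was 1 of these 3 (0.55) and the 1 called rescaled (0.48). Comparing F/F with W/W on vehicle, 4 were higher and 1 lower as deposited, a share near that of all genes, and 1 higher and 4 lower rescaled. Hacd4, a dehydratase of the cycle, was higher there by 2.47 as deposited and 1.90 rescaled. With T0901317 in W/F it was lower (-1.85), and in F/F against W/W with T0901317 Hacd4 was at 1.21 and Hsd17b12 at -1.03. Elovl4, the elongase of the longest chains, was listed at 0 in all 12 W/W livers.

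Of 5 tested genes that supply electrons to the desaturases, 2 were higher and 0 lower with T0901317 in W/W livers, among them cytochrome b5 reductase Cyb5r3 at 1.05. With T0901317, 1 was higher and 2 lower in W/F than in W/W, and 3 were higher and 2 lower in F/F than in W/W. The 2 lower in both were Cyb5r3 (-1.37 and -1.05) and the outer mitochondrial cytochrome b5, Cyb5b (-1.01 and -1.20). Cyb5a, the microsomal cytochrome b5, was higher in W/F (0.63 as deposited, 0.64 rescaled) and as deposited in F/F (0.39), where it was at -0.14 rescaled. Cyb5r1, another reductase of the family, was higher in F/F with T0901317 (1.27), and exceeded W/W on vehicle in W/F (1.41) and F/F (1.74).

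Among 5 other desaturases tested, 2 were higher and 0 lower with T0901317 in W/W, namely Scd1 (1.51) and its relative Scd2 (4.18). In W/F 1 was higher and 4 lower with T0901317 (1 and 2 rescaled), with Scd1 at 1.92 and Degs2, a sphingolipid desaturase and hydroxylase, at -1.83. Scd2 was lower there as deposited (-0.77) and at -0.21 rescaled. In F/F 1 was higher and 1 lower (2 and 1 rescaled), with Scd1 at 5.36. Comparing F/F with W/W on vehicle, 4 were higher and 1 lower (3 and 2 rescaled): Scd2 was at 2.74, Degs2 at 2.62, the dihydroceramide desaturase Degs1 at 1.24 (0.38 rescaled) and Scd1 at -9.09.

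Of 11 peroxisomal genes that import and shorten very long chains, 7 were higher and 0 lower with T0901317 in W/W livers, with a median of 0.84 against 0.06 for all genes, and 8 were higher rescaled. The bifunctional enzyme Ehhadh was at 2.37. Comparing F/F with W/W on vehicle, 3 were higher and 6 lower, with the importer Abcd2 at 2.76, the thiolase Acaa1b at -2.67, Ehhadh at -2.50 and Scp2 at -1.21. Rescaled, 1 was higher and 8 lower. With T0901317 in the mutants, 7 were higher and 2 lower in W/F (9 and 0 rescaled), and 5 higher and 0 lower in F/F (6 and 0 rescaled). Acaa1b was higher in both (1.5 and 1.27), and Abcd2 was lower in W/F (-1.38).

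Of 7 acyl-CoA synthetase and fatty acid transport genes, 5 were higher and 0 lower with T0901317 in W/W, among them the synthetases Acsl3 (1.59) and Acsl5 (1.37). With T0901317, 0 of the 7 were higher and 5 lower in W/F than in W/W, and 0 were higher and 6 lower in F/F. Acsl3 was at -1.89 and -1.52 and Acsl5 at -1.82 and -1.85.

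Of 9 regulators, 4 were higher and 0 lower with T0901317 in W/W, 3 higher and 2 lower in W/F, and 3 higher and 1 lower in F/F (3 and 0, 5 and 0, and 3 and 0 rescaled). Srebf1, which encodes the factor named above, was higher with T0901317 in W/F (2.67) and F/F (2.43), where its means went from 61.8 to 396 TPM and from 23.8 to 133 TPM. The carbohydrate-responsive factor Mlxipl was higher in both too, at 1.32 and 1.41. In the same livers Fads1, Fads2 and Elovl5 were not called as deposited. Rescaled, all 3 were called higher in W/F, and Fads1 and Fads2 in F/F. The responses of Srebf1 and Mlxipl in W/W livers are not reported here, and the part of either in these values was not tested. Ppara, the fatty acid receptor of liver, was lower in both mutants than in W/W with T0901317 (-1.04 and -1.33), and the SREBP retention factor Insig1 was lower too (-2.14 and -2.43). These comparisons share their W/W livers.

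The genes closest in pattern were found for the 3 members with the widest range, by Pearson's r of log2(TPM + 1) over 36 livers among 9225 genes with a mean of at least 5 TPM. Elovl3 was nearest to Mup2 (r = 0.955), a major urinary protein, the organic anion transporter Slco1a1 (0.950) and the sterol isomerase Ebp (0.946). Elovl6 was nearest to Fasn (0.940), Aldh9a1 (0.935) and the pantothenate kinase Pank1 (0.922). Elovl7 was nearest to Frzb (0.985), Rasal1 (0.983) and App (0.982). Among the 9 themselves the highest r was 0.873, for Elovl5 and Fads2, and the lowest was -0.871, for Elovl3 and Elovl7, and Elovl1 and Elovl7 were at 0.783. These livers share groups and library scaling, so the values describe the 36 libraries and no p is given.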

How the data were processed

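The authors deposited 1 table of TPM for 36 liver libraries, with gene names and Ensembl identifiers, per the file headers, and all its columns of values were used. The submitters' processing notes name Trimmomatic 0.36, STAR 2.5.2b, featureCounts of Subread 1.5.2 and the build GRCm38 (mm10), and the annotation is not given in the sources used here. TPM hold no counts, so depth (18.1 to 35.8 M reads, median 23.9) was recovered from the spacing of low values with GENCODE M21 exon lengths: in each library 93.7% to 95.7% of low genes gave whole reads to within 0.1, a share that is 20% by chance. For Elovl3 and Elovl7 whole reads needed the exon length multiplied by 0.757 and 1.355, the smallest factors that gave them, so their read numbers are estimates. Strand use in counting is not given, and antisense overlap covers at most 1.94% of a member's exons (Elovl1, with Cdc20).

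Values were analysed as log2(TPM + 1) with limma 3.58.1 in R 4.3.3, for the 16638 genes that reached 1 TPM in 4 or more samples. All 36 libraries entered 1 fit of 9 group means with a variance trend, each of 19 contrasts was tested on both sides, and the Benjamini-Hochberg adjustment ran over all genes of a contrast. The fit was tested on simulated data with independent noise and known changes in some genes of W/W livers with T0901317. That simulation held no shift of the median gene, so it cannot speak to the scaling of libraries. The labels do not say how the mice of a group were related beyond being separate samples. The p-values set a difference of group means against the spread within groups, pooled over these 36 livers and moderated across genes. Rescaled values use median-of-ratios factors over 14786 genes above 0 in all samples, which assumes that the median gene did not change.

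Alternatives were rescaling, a pseudocount of 0.1, a filter at 5 TPM, no filter, a replicate block, array weights, a fit of the compared groups alone and leaving out each library. The members, the pathway and marker lists and the alternatives were chosen with earlier results of these data known. All 9 members are named, and pathway genes were to be named where called with a log2 fold change of at least 1 in size. Srebf1, Mlxipl, Ppara, Nr1h3, Fasn and Scd1 were planned as reference points, and group values of Nr1h3 and Fasn are not reported here. Elovl4 is named because it is listed at 0, and the 3 nearest genes are given for the 3 members with the widest range. Not every pathway gene past that size is named, some are not reported here, and Cyb5a was chosen after its values were seen. The study's text pairs LXRalpha with the symbol Nr1h2, while Nr1h3 is its usual symbol. Same-numbered samples of different groups had a median correlation of deviations of 0.013 (-0.17 to 0.30). For other numbers it was -0.0064 (-0.32 to 0.39). Over 0.1 were 18 of 144 same-numbered pairs and 38 of 432 others. These values do not tell whether some same-numbered livers shared a litter or batch. Promoter windows are RefSeq's (GRCm38.p6).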

Additional observations from a re-analysis of the deposited data

Results flagged for a closer look

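Of 81 sets of 4 livers (9 genes in 9 groups), 3 had 1 liver far from the other 3 by Dixon's test, where chance alone flags about 1 in 20 sets. Elovl7 was at 1.70 TPM in replicate 2 of W/F with T0901317, against 0.219 to 0.402 TPM in the others. Fads1 was at 215.6 TPM in replicate 2 of F/F on chow, and Fads2 at 670.0 TPM in replicate 2 of F/F with T0901317.

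Responses differed between genotypes in 24 of 36 tests of the difference itself as deposited, in 19 rescaled and in 14 in both. Of all genes 58.5% were called as deposited for the T0901317 response of W/F, 30.4% for that of F/F, 54.6% for the diet response of W/F and 46% for that of F/F. The T0901317 response of W/F minus that of W/W was 4.80 for Elovl3, -3.46 for Fads3, -2.83 for Elovl7, -1.68 for Elovl1, -1.40 for Elovl5, -1.03 for Fads1 and -0.95 for Fads2, the last 3 not called rescaled. For F/F minus W/W it was -2.94 for Fads3, -1.43 for Elovl5, -1.18 for Elovl6, -1.05 for Elovl1, -0.97 for Fads2 and -0.91 for Fads1, of which Fads3 and Elovl1 were called rescaled. The diet response of W/F minus that of W/W was -5.57 for Elovl3, 3.00 for Elovl7, -1.59 for Elovl6, 1.07 for Elovl1 and -0.55 for Fads1, all but Elovl1 called rescaled. For F/F minus W/W it was -5.28 for Elovl3, -2.02 for Elovl6, 1.23 for Fads3, 1.21 for Elovl7, 1.10 for Elovl1 and -0.78 for Elovl2, all but Fads3 and Elovl7 called rescaled. A reader may want to look again at Fads3, whose agonist response had opposite signs in W/W and W/F livers as deposited, and at Elovl3, which T0901317 raised in W/F livers while in W/W livers the groups overlapped.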

How the results depend on the processing

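Rescaling mattered most: of 171 gene-by-contrast values, 134 kept their call status, 19 lost and 17 gained a call. Those 134 include genes uncalled in both scalings whose sign changed, such as Elovl1 in F/F against W/W with T0901317. Fads1 in F/F against W/F with T0901317, called as deposited, turned from 0.50 to -0.035. The number of the 9 genes called moved by more than 1.5 times as follows. For T0901317 against vehicle in F/F (1) it was 3 rescaled, 2 with a pseudocount of 0.1, 2 with array weights and 4 with the compared groups alone. For the diet in W/W (1) it was 0 rescaled, unfiltered, with array weights and with the compared groups alone, and 2 with a pseudocount of 0.1 or a filter at 5 TPM. For F/F against W/F on vehicle (0) it was 1 with a pseudocount of 0.1, 2 with array weights and 4 with the compared groups alone. The chow comparison of F/F with W/W (3) gave 5 with array weights, W/F against W/W on chow (1) gave 0 with the compared groups alone, and the agonist response differences gave 4 for W/F (7) and 2 for F/F (6) rescaled. The cause was not tested. With the replicate number as a block, counts moved from 1 to 3 for T0901317 in F/F and from 1 to 2 for the diet in W/W. The count for F/F against W/F on vehicle moved from 0 to 1. The labels do not say what the replicate numbers mark. Leaving out 1 library gave 0 to 4 for the diet in W/W, 1 to 2 for T0901317 in F/F, 0 to 1 for F/F against W/F on vehicle, 2 to 4 for F/F and W/W chow livers and 5 to 8 for the diet response of F/F. Depth limits Elovl7 in W/W livers (3 to 32 reads) and Elovl3 in F/F vehicle livers (3 to 26 reads).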
